A study of Mus musculus with 1012 samples.

Results

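The colony-stimulating factor (CSF) axis was taken as 8 genes, chosen by name from the 30452 features of the count table. They were the ligand genes Csf1 and Il34, their shared receptor gene Csf1r, the granulocyte-macrophage CSF (GM-CSF) receptor genes Csf2ra, Csf2rb and Csf2rb2, the granulocyte CSF (G-CSF) receptor gene Csf3r, and Spi1, which encodes the transcription factor PU.1. All 8 were found by symbol and passed the filter on low counts in both techniques. The question put to the data was where the ligand RNAs and where the receptor RNAs were found among macrophages and adipose stromal cells, and whether the macrophage stimulus lipopolysaccharide (LPS), adipogenic induction or the sampling technique went with a difference in them.

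CSF1 and IL-34 both bind CSF1R, a receptor tyrosine kinase on whose signal monocytes and macrophages depend for survival and proliferation. Stromal cells are a known source of CSF1 for tissue macrophages. PU.1 is needed for the myeloid lineages and binds purine-rich sites with a GAGGAA core in the control regions of many myeloid genes, those of the CSF receptors among them.

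Live-seq, in which part of the cytoplasm is drawn from a living cell through a hollow probe and amplified with an enhanced Smart-seq2 protocol, was set beside scRNA-seq of whole lysed cells by Smart-seq2. The macrophages were RAW264.7 cells, a mouse macrophage line, without LPS (RAW_Mock) or after LPS (RAW_LPS, sampled 4 to 5 h after its addition in Live-seq). All of them belonged to the RAW-G9 clone, which carries mCherry under the Tnf promoter and a GFP fusion of RelA and is thus 1 clone, except for 12 wild-type RAW264.7 Live-seq samples of batch 5Reseq, 11 of them with LPS. The stromal cells were IBA cells, an immortalized brown preadipocyte line from the interscapular fat of young male C57BL/6J mice, and primary adipose stem and progenitor cells (ASPCs) from the subcutaneous fat of young adult female C57BL/6J mice, before (ASPC_Pre) or after (ASPC_Post) 2 days in a cocktail of dexamethasone, 3-isobutyl-1-methylxanthine, insulin and rosiglitazone. All cells were grown in the same serum-containing medium. Shortly before Live-seq extraction it was replaced by a CO2-independent medium with serum, which held LPS or the cocktail where these were used. No added CSF is named in the sources used here, and the LPS concentration differs between the sample labels and the study's methods.

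The series held 1012 libraries: 296 of Live-seq, 162 of scRNA-seq of IBA cells of a sampling experiment, and the others of scRNA-seq. Total counts per library ran from 38451 to 2671609, with medians of 506778.5 in Live-seq and 467677 in scRNA-seq, and the median number of genes detected was 4035 and 8531. Cells are not replicates, so counts were summed over the cells of a state in a batch, with at least 3 cells, which gave 15 Live-seq sums, from all cells but 1, and 12 scRNA-seq sums from all cells. Levels are counts scaled to a total of 1000000 kept counts (CPM) in such a sum, and 3 counts, the limit that a count of 0 allows, corresponded to 0.0874 to 2.13 CPM depending on the sum. The 9 macrophage marker genes fixed for the check of labels summed to between 2048 and 33278 CPM in RAW sums, although Itgam stayed under 5 CPM there in all states but Live-seq RAW_LPS, and the 10 mesenchymal marker genes to between 3274 and 20183 CPM in IBA and ASPC sums. One scRNA-seq library labelled IBA, in batch 9_1, went against its label: Lyz2 stood at 24510 CPM and Ptprc at 809.8 CPM, while Col1a1 and Pdgfra had no count. It held Csf1r at 1459 CPM, Spi1 at 329.9, Csf2ra at 172.8, Csf2rb2 at 54.1 and Csf2rb at 12.2 CPM, so the calls and IBA levels that it moved are also given without it.

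**Figure D1:**
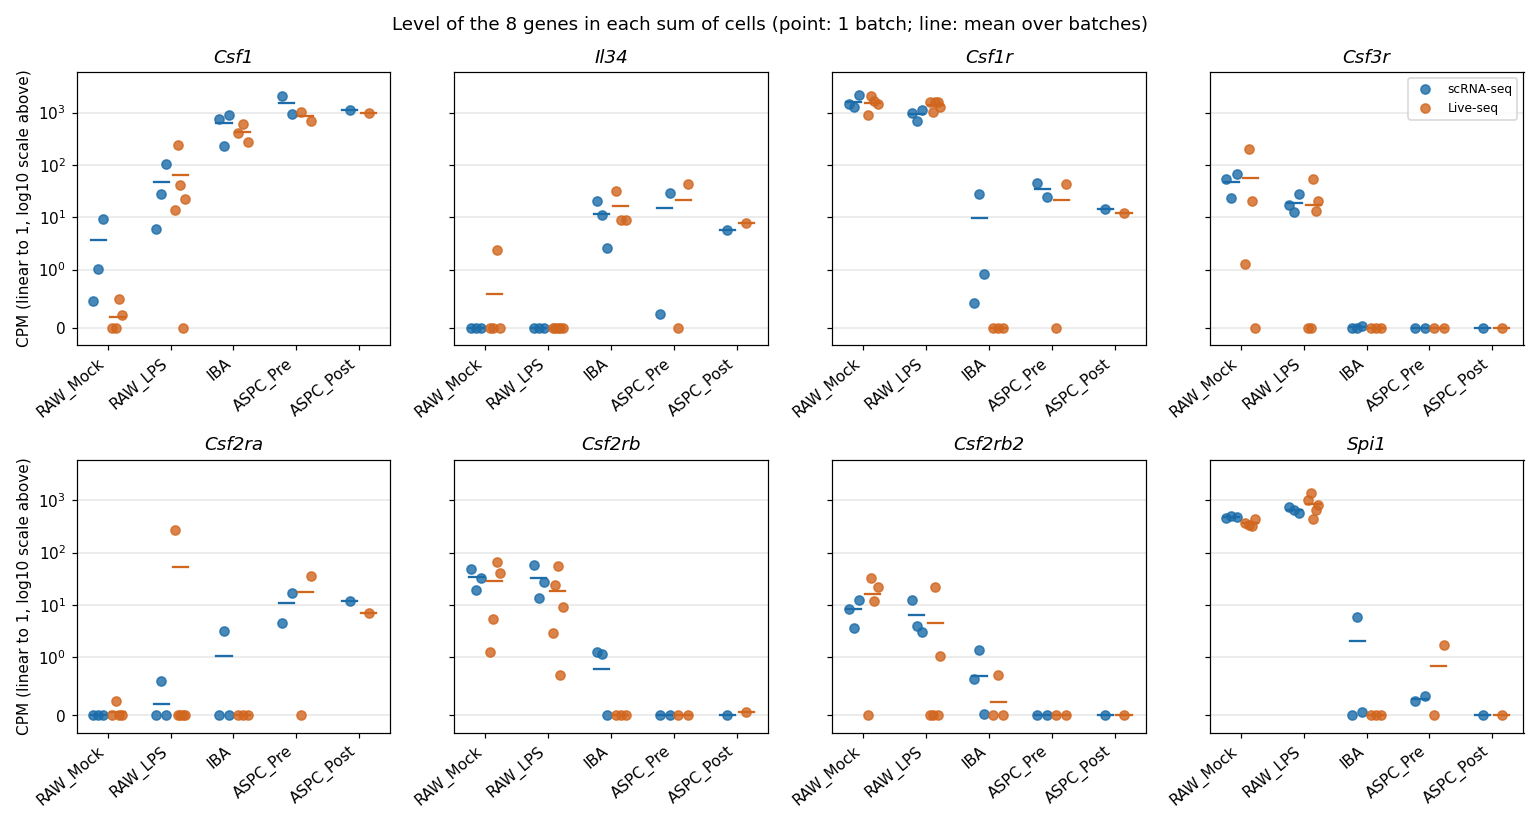
Level of each of the 8 genes (CPM, linear to 1 and on a log10 scale above) in every sum of cells, by state and technique; each point is 1 batch and each line the mean over batches. Csf1 was high in IBA cells and ASPCs, where Il34 was found at lower and uneven levels. Csf1r, Csf3r, Csf2rb, Csf2rb2 and Spi1 were high in RAW cells, and the single high RAW value of Csf2ra, 271.3 CPM, was the wild-type sum.

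Csf1 encodes the main ligand of CSF1R (ENSMUSG00000014599; GRCm38, chr3:107741048-107760469, minus strand). In scRNA-seq it stood at 2065 and 921.8 CPM in ASPC_Pre (batches 8_8 and 9_1) and at 1117 CPM in ASPC_Post. In IBA cells it stood at 768.1, 225.8 and 911.5 CPM (batches 8_8, 9_1 and scRNA). RAW_Mock cells held 0.462, 1.02 and 9.29 CPM in the same 3 batches, so every stromal sum lay above every macrophage sum. Live-seq gave the same separation, with 1010.7 and 690.02 CPM in ASPC_Pre (batches 8_8 and 9_4), 983.5 CPM in ASPC_Post and 400.1, 618.2 and 274.1 CPM in IBA cells (batches 7, 8_8 and 9_4), against 0, 0, 0.498 and 0.224 CPM in RAW_Mock (batches 6, 7, 8_8 and 9_4). Csf1 was counted in 60 of 60 ASPC_Pre whole cells and in all IBA whole cells but 1, the exception being the library that went against its label, and in 59 of 61 and 41 of 44 Live-seq samples. It was counted in 12.1% of RAW_Mock whole cells (19 cells) and in 4.81% of RAW_Mock Live-seq samples (5 samples).

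Csf1 was lower in macrophages (the mean of RAW_Mock and RAW_LPS) than in stromal cells (the mean of IBA and ASPC_Pre) by a log2 fold change of -7.12 ± 0.63 (approximate SE, worked back from the test statistic, here and below; adjusted p = 2.13e-05, edgeR quasi-likelihood test) in scRNA-seq and of -8.18 ± 1.26 (adjusted p = 0.00272) in Live-seq. The Live-seq call was lost without batch 9_4, at the same log2 fold change of -8.18 and an adjusted p of 0.138. Pooled over all whole cells, RAW_Mock had 0.00497 times the Csf1 of ASPC_Pre and 0.00922 times that of IBA cells.

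Il34 encodes the other ligand of CSF1R (ENSMUSG00000031750; chr8:110741829-110805924, minus strand; 4.95% of its exon bases overlap Gm15894 and Gm15895, and reads were counted without strand). No RAW whole cell held a count, which allows shares of up to 1.91% of the RAW_Mock and 2.01% of the RAW_LPS cells. Such limits, here and below, are for cells with a count and not for cells that express the gene. It stood at 20.6, 10.9 and 2.54 CPM in the 3 IBA sums and at 0.243 and 29.5 CPM in the ASPC_Pre sums of batches 8_8 and 9_1, so the ASPC_Pre batches bracketed the IBA values. In Live-seq it stood at 31.7, 9.02 and 9.04 CPM in IBA sums, at 0 and 42.4 CPM in ASPC_Pre, and at 0 in all RAW sums but 1, where a single cell of 63 carried 42 counts. Il34 was counted in only 2 cells of each IBA sum, and 1 of them carried 99.7%, 64.1% and 83.1% of its counts (batches 7, 8_8 and 9_4). Among whole cells it was counted in 32.03% of IBA cells (49 cells) and 27 of 60 ASPC_Pre cells, against 99.3% and 60 of 60 for Csf1. Per kilobase of exon, the mean level in ASPC_Pre sums was 7.58 CPM for Il34 and 282.8 CPM for Csf1.

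The macrophage-against-stromal test called Il34 in scRNA-seq (log2 fold change -10.89 ± 1.89, adjusted p = 0.00542, edgeR) but not in Live-seq (-8.04, adjusted p = 0.183). Since the macrophage sums were at 0, the fitted scRNA-seq value is no bound. Against the 3-count floor over all RAW_Mock whole cells, Il34 was at least 540.4 times lower there than in ASPC_Pre and at least 163.7 times lower than in IBA cells.

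Csf1r, the receptor of both ligands (ENSMUSG00000024621), was abundant in every RAW sum. Whole RAW_Mock cells held 1453 CPM in batch 8_8, 1274 CPM in 9_1 and 2142 CPM in the batch named scRNA, and Live-seq RAW_Mock samples held 885.5, 2114, 1660.8 and 1452 CPM (batches 6, 7, 8_8 and 9_4). In the Live-seq sum of batch 6, Csf1r was counted in 4 of 8 cells, and 1 cell carried 98.2% of its counts. It was counted in every RAW whole cell, in 85.6% of RAW_Mock Live-seq samples (89 samples) and in 46 of 50 RAW_LPS Live-seq samples. Per kilobase of exon it was the highest of the receptor genes in RAW_Mock, with a mean of 281.1 CPM in scRNA-seq against 13.3 for Csf3r, 4.69 for Csf2rb and 1.75 for Csf2rb2, and all 3 of its sums lay above all sums of the other receptors. Exons of Hmgxb3 overlap 15.1% of its exon bases, and its neighbour Pdgfrb ends 15537 bp before its start.

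Stromal cells had far less Csf1r, and ASPCs differed from IBA cells in it. In scRNA-seq the receptor stood at 44.3 and 24.05 CPM in ASPC_Pre and at 14.2 CPM in ASPC_Post. IBA cells held 0.417, 28.2 and 0.931 CPM, of which the middle value, in batch 9_1, was 1.68 CPM without the library whose markers went against its label. Without that library all 3 IBA sums lay below all ASPC sums. In Live-seq no IBA sample held a count (0 of 44, which allows a share of up to 6.82%), whereas ASPC_Pre held 0 CPM in batch 8_8 and 42.7 CPM in batch 9_4 and ASPC_Post 12.1 CPM. The Live-seq ASPC_Pre sum of batch 8_8 came from 18 cells with a median of 1722 genes, against 43 cells and 6153 genes in batch 9_4.

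Csf1r was higher in macrophages than in stromal cells by a log2 fold change of 6.27 ± 1.06 (adjusted p = 0.000977) in scRNA-seq and of 11.54 ± 1.63 (adjusted p = 0.00329) in Live-seq (edgeR), where 4 of the 5 stromal sums were at 0. Pooled over whole cells, RAW_Mock had 64.9 times the Csf1r of ASPC_Pre (95% interval 60.4 to 69.8, counting error only). In Live-seq, RAW_Mock had at least 12314 times the level of IBA cells and 49.5 times that of ASPC_Pre. The difference between the 2 stromal types, ASPC_Pre minus IBA in scRNA-seq, was 2.36 ± 1.27 (adjusted p = 0.244) over all libraries and 5.14 (adjusted p = 0.000414) without the library that went against its label, an alternative added after its markers were seen.

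The ASPC reads of Csf1r were spread over many cells. It was counted in 39 of 60 ASPC_Pre (65.0%) and 23 of 35 ASPC_Post whole cells, against 15.7% of IBA cells (24 cells). Thinned to 50000 kept counts per cell, the shares were 51.7% in ASPC_Pre, 34.3% in ASPC_Post and 5.23% in IBA. Of all 95 ASPC whole cells, 62 held Csf1r. All 62 also held Csf1 (95 of all 95 did), 54 held the mesenchymal marker Pdgfra (79 of all 95) and 50 held Dcn (71 of all 95). Of the 9 macrophage markers, Lyz2 was counted in 37 of the 62, Cd68 in 26 and Cd14 in 24 (46, 30 and 30 of all 95), and Laptm5 in 3, Ptprc, the pan-leukocyte gene, in 2, and Tyrobp, Itgam, Fcer1g and Ctss in 1 each. Spi1 was counted in 1 of the 62. The whole marker list summed to 7.05 to 31.0 CPM in the ASPC_Pre sums, with 7 of its 9 genes under 5 CPM, against 6641 to 9771 CPM in RAW_Mock. In Live-seq, 34 of 98 ASPC samples held Csf1r, of which 14 also held Lyz2, 11 Cd14, 10 Cd68, 3 Fcer1g, 1 Ctss and 1 Spi1 (23, 15, 16, 3, 1 and 1 of all 98), and none Ptprc, Itgam, Tyrobp or Laptm5.

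The GM-CSF receptor needs both the ligand-binding alpha chain of Csf2ra and the signalling beta chain of Csf2rb. Csf2rb2 is a mouse-specific copy of Csf2rb whose product pairs with the IL-3 receptor alpha chain. Csf2ra (ENSMUSG00000059326; chr19:61223957-61228429, minus strand) was nearly absent from RAW-G9 cells. Among all RAW-G9 libraries of both techniques it was counted in 2 (0.446%, exact binomial 95% interval 0.0541 to 1.60), where Csf1r was counted in 96.4% and Csf2rb in 55.4%. The 11 wild-type RAW_LPS Live-seq samples held 271.3 CPM, with counts in 7 of 11, where the 39 RAW-G9 RAW_LPS samples held none, so the wild-type level was at least 1592 times higher. The wild-type cells were sampled in 1 batch that held no RAW-G9 cell, so line and batch cannot be told apart.

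In the rest of the series Csf2ra was found in ASPCs. ASPC_Pre held 4.62 and 17.02 CPM in scRNA-seq and 0 and 35.02 CPM in Live-seq, and ASPC_Post 11.9 and 7.07 CPM. IBA cells held 0, 3.15 and 0 CPM in scRNA-seq, and the 3.15 CPM came from the library that went against its label alone, while Live-seq IBA samples held none. It was counted in 35 of 60 ASPC_Pre whole cells, 1 IBA cell (0.654%) and no RAW_Mock cell (which allows a share of up to 1.91%), and 46 of the 56 ASPC whole cells that held Csf2ra also held Csf1r, where 62 of all 95 did. Over the whole ASPC_Pre cells Csf2ra was at least 325.9 times higher than in RAW_Mock. The fitted macrophage-against-stromal difference in scRNA-seq was -6.38 ± 1.27 (adjusted p = 0.00597, edgeR). That call was lost without the library that went against its label (-2.73, adjusted p = 1) and without batch 9_1 (-4.64, adjusted p = 1). ASPC_Pre minus IBA was 4.06 ± 1.39 (adjusted p = 0.11) over all libraries and 10.70 (adjusted p = 0.0229) without that library.

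The beta-chain genes lie side by side, with starts 20031 bp apart (Csf2rb, ENSMUSG00000071713, chr15:78325752-78353847, plus strand; Csf2rb2, ENSMUSG00000071714, chr15:78282507-78305721, minus strand), and are near copies. Over 2631 aligned coding bases of the reference transcripts they were 95.2% identical. Of the 4826 windows of 75 bases in Csf2rb, 10.7% also occurred in Csf2rb2, and 11.1% of those of Csf2rb2 occurred in Csf2rb. Reads from these stretches cannot be assigned to either gene, and only uniquely mapped reads were counted. How far this changed the 2 values was not measured.

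Both beta-chain genes were macrophage RNAs. Csf2rb stood at 49.7, 19.6 and 33.2 CPM in the scRNA-seq RAW_Mock sums and at 58.8, 13.8 and 27.2 CPM in the RAW_LPS sums of the same batches, so the groups overlapped. IBA sums held 1.25, 1.14 and 0 CPM, the second of them 0.939 CPM without the library that went against its label, and ASPC sums none. In Live-seq it varied between batches from 1.28 to 66.9 CPM in RAW_Mock and from 0.699 to 55.9 CPM in RAW_LPS. Csf2rb2 was lower, at 8.55, 3.64 and 12.6 CPM in RAW_Mock and 12.4, 4.02 and 3.08 CPM in RAW_LPS in scRNA-seq, and was counted in 26.8% of RAW_Mock and 14.8% of RAW_LPS cells, where Csf2rb was counted in 66.2% and 69.1%. The macrophage-against-stromal test gave 8.92 ± 1.31 for Csf2rb (adjusted p = 0.000664) and 6.99 ± 1.48 for Csf2rb2 (adjusted p = 0.00426) in scRNA-seq and called neither in Live-seq (10.60, adjusted p = 0.0592, and 6.77, adjusted p = 0.184, edgeR). Against ASPC_Pre, pooled RAW_Mock whole cells held at least 273.9 times more Csf2rb and at least 83.3 times more Csf2rb2.

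Csf3r, the G-CSF receptor gene typical of granulocytes and their precursors (ENSMUSG00000028859; chr4:126024550-126044440, plus strand), was a low but regular RNA of RAW whole cells. It stood at 53.8, 23.7 and 66.8 CPM in RAW_Mock and at 17.2, 12.5 and 27.6 CPM in RAW_LPS (batches 8_8, 9_1 and scRNA), each LPS value below the mock value of its batch, although the ranges overlapped. Only 1 count was found in the IBA cells and none in 60 ASPC_Pre and 35 ASPC_Post cells. Live-seq picked it up in 13.5% of RAW_Mock (14 samples) and 5 of 50 RAW_LPS samples, where whole cells gave 70.1% and 55.7%, and its Live-seq RAW_Mock sums ran from 0 to 204.4 CPM, the highest from 2 of 20 cells. It was higher in macrophages than in stromal cells by 11.08 ± 0.65 in scRNA-seq (adjusted p = 4.29e-06) and did not pass in Live-seq (10.43, adjusted p = 0.0611, edgeR). Its pooled level in RAW_Mock whole cells was at least 462.3 times that of ASPC_Pre.

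**Figure D2:**
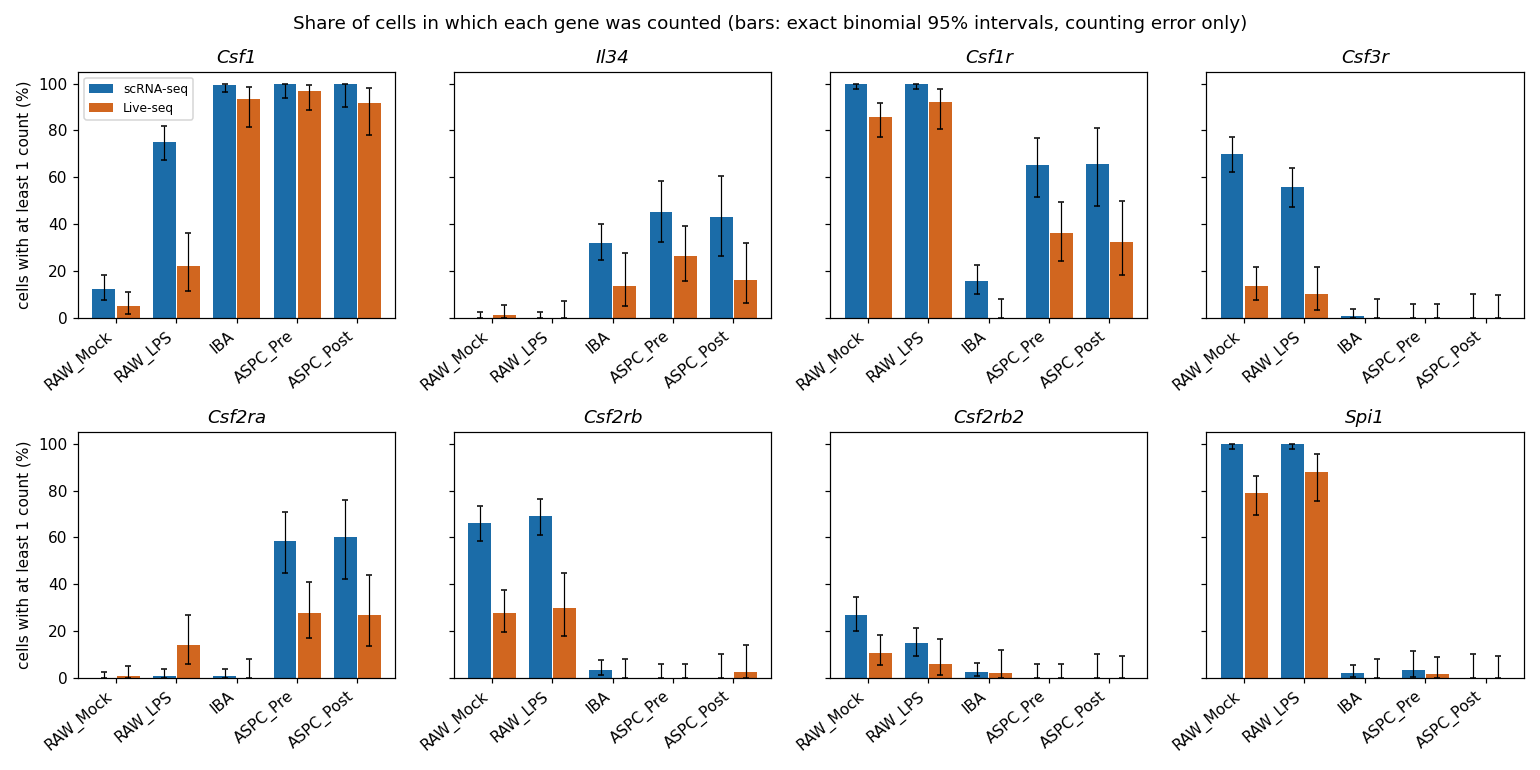
Share of cells with at least 1 count of each gene (%), by state, for scRNA-seq and Live-seq; error bars are exact binomial 95% intervals for counting error. Csf1r and Spi1 were counted in every RAW whole cell, Csf1 in 75.2% of RAW_LPS and 12.1% of RAW_Mock whole cells, and Csf1r in 65.0% and Csf2ra in 58.3% of the ASPC_Pre whole cells.

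Spi1 (ENSMUSG00000002111; chr2:91082390-91115756, plus strand) was the most even of the 8 genes over RAW_Mock batches. It stood at 460.2, 491.1 and 483.2 CPM in scRNA-seq, a mean of 478.1 ± 16.1 (SD, n = 3), and at 369.5, 334.5, 321.6 and 444.6 CPM in Live-seq, a mean of 367.6 ± 55.2 (n = 4). All RAW_Mock and RAW_LPS whole cells held it, as did 78.8% of RAW_Mock (82 samples) and 44 of 50 RAW_LPS Live-seq samples. In stromal cells it was close to absent, with 2 of 60 ASPC_Pre cells and 3 IBA cells (1.96%). In the IBA sum of batch 9_1 it stood at 6.01 CPM, and at 0 without the library that went against its label. The macrophage-against-stromal difference was 10.01 ± 1.08 in scRNA-seq (adjusted p = 7.08e-05) and 11.95 ± 1.10 in Live-seq (adjusted p = 0.000256, edgeR). Pooled RAW_Mock whole cells had 1532 times the level of ASPC_Pre (806.9 to 3350), in which 9 counts were found.

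Over all libraries, all 8 genes passed the macrophage-against-stromal test in scRNA-seq, 5 higher and 3 lower, where 41.3% of the 13562 genes tested were called, 15.3% higher and 25.98% lower. Without the library that went against its label 7 of the 8 passed, where 41.5% of genes were called. Csf2ra was the 1 lost (-2.73, adjusted p = 1), as it was without batch 9_1. The other log2 fold changes were then 7.47 for Csf1r, 12.26 for Spi1, 8.98 for Csf2rb, 7.28 for Csf2rb2, 11.08 for Csf3r, -7.09 for Csf1 and -10.90 for Il34. In Live-seq 3 of the 8 were called (Csf1r and Spi1 higher, Csf1 lower) against 6.54% of 13462 genes (2.01% higher, 4.53% lower). DESeq2 called 6 there, adding Il34, Csf2rb and Csf3r, where it called 18.1% of genes. The median log2 fold change of the 8 genes, 6.63 and 8.60, mixes ligands and receptors of opposite sign, and the medians of all genes were -0.10 and -0.40. No member passed the test of whether this difference itself differed between techniques, where 0% of genes were called by edgeR (3.75% of genes and 1 member were at an unadjusted p under 0.05, and DESeq2 called 2.18% and no member).

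RefSeq promoter sequences of the GRCm38.p6 assembly, 250 bases before to 50 bases after a gene's start, could be matched for 4 of the 8 genes (Csf1, Csf2ra, Csf2rb2 and Csf3r). They are shown because PU.1 is known to act at control regions of CSF receptor genes. Both strands were searched for the PU.1 core GAGGAA, present in 28.3% of 32851 promoters, for its longer form GAGGAAGT, which contains the core and is present in 3.20%, and for an NF-kappaB form (3 G, any 2 bases, 3 T and 2 C), present in 1.63%. Csf3r had 1 core, Csf2rb2 had 2, of which 1 was the longer form, and Csf2ra had 2 cores 6 bases apart, while Csf1 had none. Csf1 alone of the 4 held the NF-kappaB form, upstream of the start. Windows of 30 bases follow with each match of the motif in capitals, each window written 5′ to 3′ on the strand given.
Csf1 (chr3:107760604-107760633, plus strand): ctggcccctaGGGACTTTCCctcaaggccc
Csf3r (chr4:126024561-126024590, plus strand): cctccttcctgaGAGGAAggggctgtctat
Csf2rb2 (chr15:78305676-78305705, plus strand): gagagcagattGAGGAAGTtgccagtgccc
Csf2ra (chr19:61228415-61228444, minus strand): caacctgcagatGAGGAAGAGGAAgcggga
A match is a string of letters and not a shown binding site. The core was found in Csf2ra, low in RAW-G9 cells, as well as in Csf3r and Csf2rb2, and its absence from the window of Csf1 says nothing about the factor elsewhere.

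LPS went with more Csf1 in macrophages. In scRNA-seq it stood at 6.05, 27.7 and 106.2 CPM in RAW_LPS (batches 8_8, 9_1 and scRNA) against 0.462, 1.02 and 9.29 CPM in RAW_Mock of the same batches, higher in 3 of 3 batches, although the lowest LPS sum lay under the highest mock sum. It was counted in 75.2% of RAW_LPS cells (61.1% after thinning) against 12.1% of RAW_Mock cells (9.62% after thinning). Csf1 rose by a log2 fold change of 4.03 ± 0.77 (adjusted p = 0.0411, edgeR with batch as a term), and it was the 1 member called where 1.28% of genes were called (0.951% higher, 0.324% lower). The call held under DESeq2 (adjusted p = 6.91e-07). It was lost without the batch term (3.78, adjusted p = 0.192), with ribosomal protein and negative-control genes kept (4.02, adjusted p = 0.05) and without each batch in turn (8_8 4.21, adjusted p = 0.0672; 9_1 3.39, 0.213; scRNA 4.46, 0.2). Even then the level in RAW_LPS stayed below the stromal one, at a mean of 8.83 CPM per kilobase against 120.3 in IBA cells and 282.8 in ASPC_Pre. Single sums lay closer, with 106.2 CPM in the highest RAW_LPS sum and 225.8 CPM in the lowest stromal one, IBA of batch 9_1. In Live-seq these were 238.9 CPM (RAW_LPS, batch 6) and 274.1 CPM (IBA, batch 9_4).

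Live-seq showed the same direction of Csf1 in 3 of 4 batches. RAW_LPS sums held 13.5, 238.9, 41.7, 0 and 22.6 CPM (batches 5Reseq, 6, 7, 8_8 and 9_4), the first of them wild-type, against 0 to 0.498 CPM in RAW_Mock, so that 4 of 5 LPS sums lay above all mock sums and batch 8_8, with 9 LPS cells, had none. Counts came from 11 of 50 RAW_LPS samples (22%), with 2 or 3 such samples in each of these 4 sums. The highest sample carried 64.3%, 62.02%, 53.1% and 92.7% of the Csf1 counts in them (batches 5Reseq, 6, 7 and 9_4). The fitted difference of 7.20 ± 1.56 had an unadjusted p of 0.000709 from the edgeR model and did not pass over all genes (adjusted p = 0.861). No gene was called in this comparison by edgeR (0%, with 4.004% of genes and 1 member at an unadjusted p under 0.05), while DESeq2 called 4.79% of genes and 2 members, Csf1 (7.68, adjusted p = 6.18e-06) and Il34, which rested on the 42 counts of 1 RAW_Mock cell. With each cell thinned to the same depth edgeR called Csf1 as well (5.91, adjusted p = 0.00424). Neither tool called a difference in the effect of LPS on Csf1 between techniques (edgeR 2.97 ± 1.71, adjusted p = 1). Across all genes 0% were called there by edgeR (4.92% were at an unadjusted p under 0.05, and DESeq2 called 3.03%, with 1 member, Il34).

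Of the receptors, none was called after LPS. Csf1r stood at 977.4, 677.1 and 1128 CPM in scRNA-seq RAW_LPS sums, each below the mock value of its batch, and all 3 lay below the lowest mock sum, 1274 CPM. The test gave -0.63 ± 0.99 (adjusted p = 0.882, edgeR). In Live-seq RAW_LPS sums held 1593, 1014, 1622, 1565 and 1262 CPM, within the range of RAW_Mock (-0.08 ± 1.01, adjusted p = 1), with a lower value in 3 of the 4 shared batches. The low end of that range, 885.5 CPM in batch 6, came almost wholly from 1 cell. Batch 6 was also the shared batch without a lower value. Csf3r was lower with LPS in 3 of 3 scRNA-seq batches (-1.12 ± 0.42, adjusted p = 0.267) and in 3 of 4 Live-seq batches. Csf2rb moved in no common direction (0.00 ± 0.99, adjusted p = 1). The spread of Csf1r between whole cells was wider with LPS in each batch, with a coefficient of variation of 56.2%, 60.1% and 50.4% against 27.1%, 49.3% and 25.7% in RAW_Mock, a description over cells without a test.

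Spi1 was higher with LPS in all 3 scRNA-seq batches, at 743.2, 643.01 and 581.2 CPM, and all 3 LPS sums lay above all 3 mock sums. It was also higher in 4 of 4 shared Live-seq batches, with 1010.4, 1368, 442.6, 652.2 and 804.03 CPM over the 5 LPS sums, of which only the lowest, in batch 7, fell inside the RAW_Mock range. Neither fit called it (0.61 ± 0.81, adjusted p = 0.837, and 1.08 ± 0.69, adjusted p = 1, edgeR). Of the 7 LPS response genes checked, all 7 were higher in scRNA-seq and 1 was called, Nfkbia (2.25 ± 0.37, adjusted p = 0.0275), while Tnf, at 3.41 ± 0.87, had an adjusted p of 0.105.

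**Figure D3:**
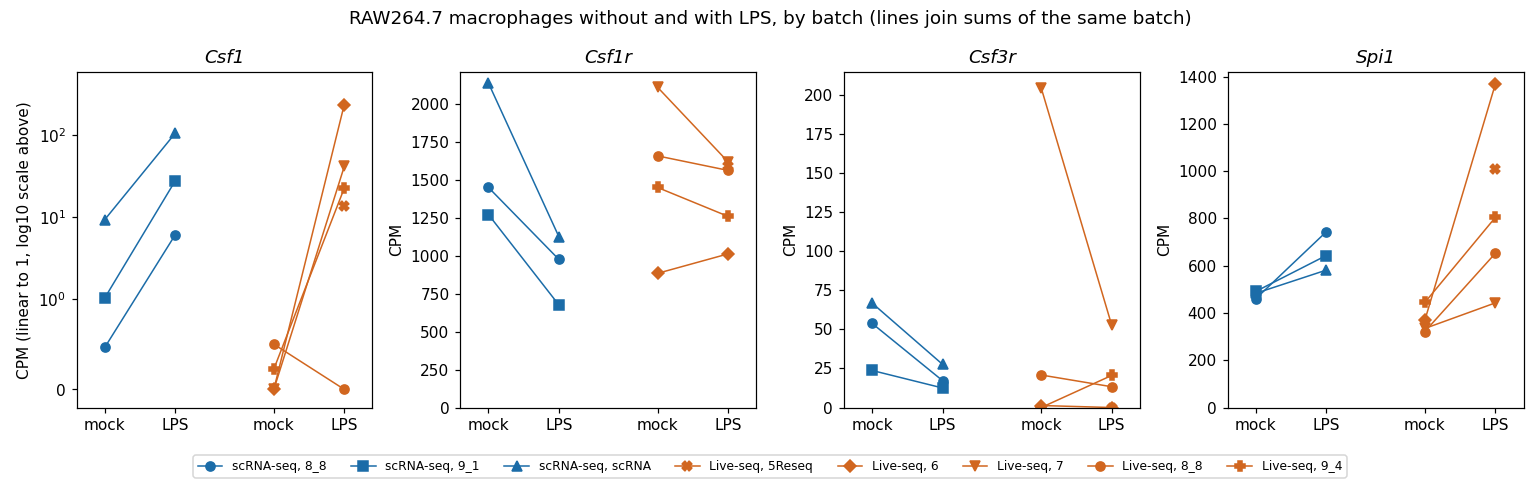
CPM of the members in RAW cells without and with LPS; lines join the sums of 1 batch, and marker and colour give the batch and technique (panels with a log10 scale are linear to 1). Csf1 was higher with LPS in 3 of 3 scRNA-seq and 3 of 4 Live-seq batches, Spi1 in 3 of 3 and 4 of 4, and Csf1r lower in 3 of 3 and 3 of 4.

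Between the stromal types, no member was called in scRNA-seq over all libraries, where 10.9% of genes were. At an unadjusted p under 0.05 (edgeR) were 4 members and 30.2% of all genes. Csf1 was the closest, 2.20 ± 0.72 higher in ASPC_Pre than in IBA (adjusted p = 0.0768), and was higher in both batches that held both types. It passed under DESeq2 (adjusted p = 0.027), which called 2 members. The share of all genes that DESeq2 called in this comparison is not given here. Without the library that went against its label, 3 members were called, where 12.6% of genes were. They were Csf1r and Csf2ra, given above, and Spi1, whose difference turned from -2.69 ± 1.55 to 3.42 (adjusted p = 0.0224) on 9 counts in ASPC_Pre and 2 in IBA. Live-seq called 0 of the 8 where 0.0223% of genes were called. There 3 members and 3.94% of all genes were at an unadjusted p under 0.05 (edgeR). DESeq2 called 1 member, Csf1r, and 2.05% of all genes.

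Adipogenic induction was sampled in 1 batch per technique, so ratios carry counting intervals and no test. Of the 5 induction markers, within the batch of each technique, the glucocorticoid-induced gene Zbtb16 stood at 0 CPM before and 24.4 CPM after in whole cells and at 0 and 23.1 CPM in Live-seq. Fkbp5 stood at 3.78 and 60.8 CPM and at 1.45 and 23.8 CPM, and Cebpa at 1.36 and 22.1 CPM and at 0.314 and 3.19 CPM. The lipid carrier gene Fabp4 stood at 15.99 and 571.7 CPM and at 17.7 and 318.9 CPM, although fewer cells held it after induction (14 of 35 against 32 of 44 whole cells, and 11 of 37 against 20 of 43 Live-seq samples). Pparg was not higher in whole cells, with 12.2 CPM before and 8.42 CPM after, and stood at 7.48 and 7.76 CPM in Live-seq. Csf1 was 1.21 times its ASPC_Pre level after induction in whole cells (1.19 to 1.23) and 1.43 times in Live-seq (1.39 to 1.46). The other 3 members found in ASPCs were lower in both techniques. Il34 was at 0.197 times (0.158 to 0.243) and 0.181 times (0.148 to 0.220), Csf1r at 0.592 times (0.508 to 0.688) and 0.284 times (0.241 to 0.334), and Csf2ra at 0.700 times (0.589 to 0.83) and 0.202 times (0.163 to 0.248). Within batch 9_1 Csf1r was counted in 65.7% of whole cells after and 63.6% before induction, and in 34.3% and 50% after thinning. The whole-cell ASPC_Pre sums of batches 8_8 and 9_1 differed from each other by more than ASPC_Post differed from ASPC_Pre for each of these 4 genes, and whether a second batch of ASPC_Post would repeat these ratios was not tested.

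**Figure D4:**
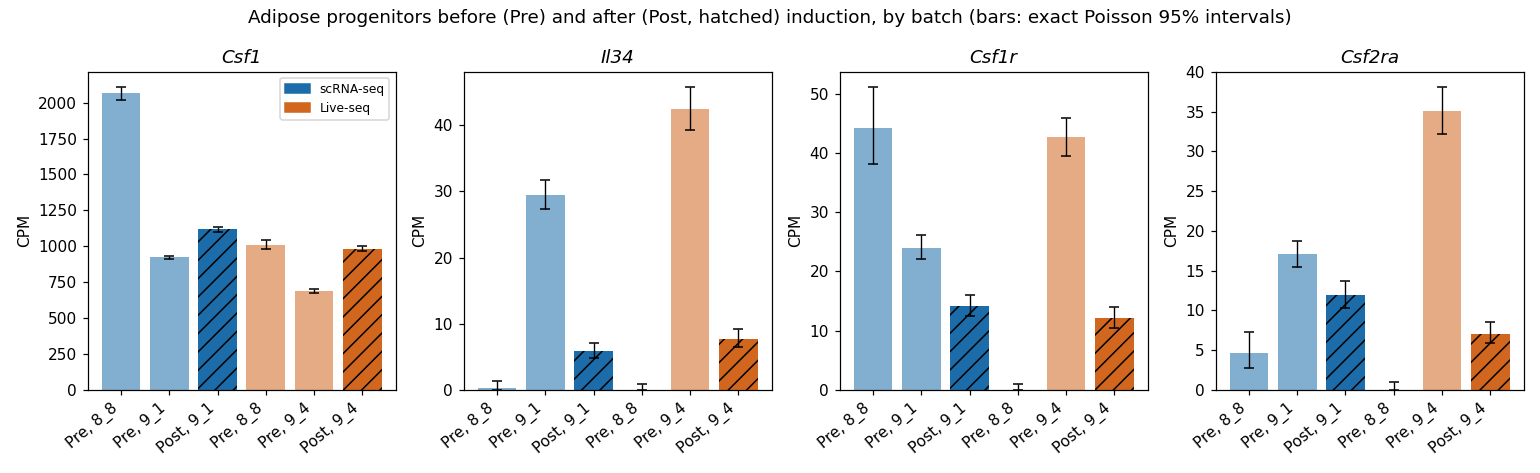
CPM of Csf1, Il34, Csf1r and Csf2ra in ASPC sums before (Pre) and after (Post, hatched) induction, by batch and technique; error bars are exact Poisson 95% intervals for counting error. Within batches 9_1 and 9_4 Csf1 was higher and the other 3 genes lower after induction, while ASPC_Pre of batch 8_8 stood apart from the other batches.

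Between Live-seq and scRNA-seq edgeR called 0% of genes in each of RAW_Mock, RAW_LPS, IBA and ASPC_Pre (4.56%, 8.34%, 4.17% and 1.47% were at an unadjusted p under 0.05, with 2, 1, 3 and 0 members, and DESeq2 called 0.959%, 1.89%, 1.04% and 0.524%, with 1, 0, 2 and 0 members). Only batch 8_8 held both techniques, so these fits had no batch term, and technique and batch could for the most part not be told apart in them. The lack of calls is thus no sign of equal levels. In batch 8_8 Csf1r in Live-seq RAW_Mock was 1.14 times the whole-cell level (1.11 to 1.17) and in RAW_LPS 1.60 times (1.52 to 1.69). In RAW_Mock Csf2rb was at 1.35 times (1.16 to 1.56), Spi1 at 0.699 times (0.664 to 0.736) and Csf3r at 0.386 times (0.327 to 0.457). Csf1 was at 0.805 times in IBA cells and 0.489 times (0.471 to 0.508) in ASPC_Pre. Wide gaps were seen for Csf2rb in RAW_LPS, at 0.0119 times (0.000300 to 0.0668) on 1 Live-seq count, and for Csf1r in ASPC_Pre, which had no Live-seq count in that batch against 44.3 CPM in whole cells and was at least 59.1 times lower. These ratios compare 1 sum with another. Fewer RNA molecules drawn, a lower level in the cell and the change of medium before Live-seq extraction cannot be told apart.

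Beyond Csf2ra, the wild-type LPS sum of Live-seq lay inside the range of the 4 RAW-G9 LPS sums for each of the other members found. Csf1r stood at 1593.5 CPM (RAW-G9 1013.8 to 1622.1), Spi1 at 1010.4 CPM (442.6 to 1368) and Csf1 at 13.5 CPM (0 to 238.9). Csf2rb stood at 2.89 CPM (0.699 to 55.9), Csf2rb2 at 0 (0 to 21.8) and Csf3r at 0 (0 to 52.8). A range that reaches 0 holds any absent gene. Pooled over cells, as for Csf2ra above, wild-type was at least 63.2 times lower for Csf3r and 21.8 times lower for Csf2rb2. It was at 0.0801 times RAW-G9 for Csf2rb, 0.276 for Csf1, 1.08 for Csf1r and 1.60 for Spi1. Of these LPS-treated Live-seq samples, the alpha chain gene was counted in 7 of 11 wild-type and 0 of 39 RAW-G9 samples, and Csf2rb in 3 of 11 and 12 of 39. The library that went against its IBA label held Csf2ra at 172.8 CPM. This whole-cell library held Csf2rb2 at 54.1 CPM, against 0 CPM in the wild-type Live-seq sum. Csf1 stood at 0 CPM in it and at 13.5 CPM in that sum, where only 3 of the 11 samples held a count. Tnf stood at 94.2 CPM in the library, against 833.8 to 4178 CPM in the wild-type LPS samples. The library and that sum also differ in technique, and what cell the library came from was not tested. The library had no count of mCherry, which was counted in 32 of 46 RAW_Mock and 45 of 46 RAW_LPS cells of its batch.

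The other genes of the pathway are given by list, for macrophages against stromal cells in scRNA-seq. Of the 4 other ligand genes, Csf3, which encodes G-CSF, was the 1 tested, and it was higher in macrophages in scRNA-seq (10.51 ± 2.50, adjusted p = 0.0076), with counts in 44.3% of RAW_LPS and 2.55% of RAW_Mock cells (66 and 4 cells). Its difference with LPS had an adjusted p of 0.294 (5.67 ± 2.24). Of 5 tested receptor partner and sheddase genes, Adam17, whose protease cuts CSF1R and CSF1 from the cell surface, was higher in macrophages (3.35 ± 0.22, adjusted p = 3.76e-06), and Il3ra (-10.94 ± 0.89) and Sdc1 (-8.09 ± 0.77) were lower. Of 24 signalling genes, 7 were higher and 5 lower, where 15.3% and 25.98% of all genes were, and their median was -0.14 against -0.10 for all genes, with the phosphatase genes Inpp5d (10.03) and Ptpn6 (7.42) and the phospholipase gene Plcg2 (4.10) higher and Cblb (-2.24), Jak1 (-1.78) and Ptpn11 (-1.57) lower.

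Myeloid transcription factors were split. Of 13 tested, 7 were called higher and 3 lower, where 15.3% and 25.98% of all genes were. The higher ones were led by Irf8 (11.39), Ikzf1 and Cebpe (9.71). Among the lower ones were Maf (-12.35) and Cebpa (-3.78), the latter also a factor of adipocyte formation. Of 15 genes known to be controlled by PU.1, 12 were tested. Of the 12, 11 were called higher in scRNA-seq and 10 in Live-seq (medians 9.39 and 12.12), where 15.3% and 2.01% of all genes were. The filter needs counts in 15% of the cells of 1 scRNA-seq state. Genes of this list that were low in RAW cells could thus drop out, so these counts were in part set by the filter. The largest changes were those of the oxidase gene Ncf1 (13.04 in scRNA-seq and 15.03 in Live-seq), the kinase gene Btk (11.74) and the oxidase gene Cybb (11.30). Tlr4, the LPS receptor, was the 1 that passed in neither (0.53 ± 0.40, adjusted p = 0.296, in scRNA-seq), and it was higher in ASPC_Pre than in IBA (2.58 ± 0.62, adjusted p = 0.0316). With LPS none of the genes of these lists was called in scRNA-seq. These lists share genes with the macrophage markers, and no list was tested as a set.

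Over the 27 sums, the genes whose log2 levels followed those of Csf1r most closely were Lyz2, Mycn, Fmnl1, Trem2 and Cd68, with Pearson's r of 0.957, 0.955, 0.944, 0.944 and 0.942, and Spi1 was the sixth of 13462 at 0.941. Spi1 itself was followed most closely by Hcls1 (0.993), Clec5a, Fcer1g and Rac2 (0.992 each), and Csf1 by Klf3 (0.932), Glipr2 (0.921) and Frmd6 (0.898), with Pdgfrb, a mesenchymal marker, at 0.877. These values describe sums that share cell types and batches. Among single RAW whole cells, within a state and batch, Csf1r and Spi1 had r between -0.38 and 0.06 over 15 to 95 cells, so that the likeness over states was not seen between cells of a state. Csf1 and Tnf in RAW_LPS cells had r of 0.36, 0.39 and 0.22 in the 3 batches, beside 0.24, 0.21 and 0.15 for Csf1 with the number of genes detected.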

How the data were processed

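Single-cell libraries were sequenced on polyadenylated RNA, and the authors deposited raw read counts per gene and library. Per the study's methods and the processing notes (bcl2fastq 2.19.1, STAR 2.6.1c, HTSeq), uniquely mapped reads were counted without strand against a mouse mm10 annotation with the reporter sequences added. No UMIs were used, so reads copied from the same molecule were counted separately. Intervals on counts treat reads as independent and cover neither this nor the spread between cells. They are thus too narrow as a measure of how well an RNA level is known.

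There were 157 RAW_Mock, 149 RAW_LPS, 153 IBA, 60 ASPC_Pre and 35 ASPC_Post whole cells and 104, 50, 44, 61 and 37 Live-seq samples of these states. Counts were summed per technique, state and batch (at least 3 cells), after 20 negative-control and 89 ribosomal protein genes had been left out. Genes with at least 2 counts in 15% of the cells of 1 scRNA-seq state were kept and then filtered with filterByExpr (minimum count 2). Sums were tested with edgeR 4.0.16 in R 4.3.3 (TMM, quasi-likelihood F test, state plus batch within a technique, no batch term between techniques, prior count 0.125), p-values were adjusted over all genes tested (Benjamini-Hochberg), and genes were called at an adjusted p under 0.05 and an absolute log2 fold change over 1. The value after ± on a log2 fold change is the size of that change divided by the square root of F. It approximates an SE and is not reliable where a group had counts near 0, as the stromal cells had for Csf3r. DESeq2 1.42.0, other filters and scalings, thinned cells and each batch left out were the alternatives. The steps were tested on simulated data. Batches are the labels' experimental replicates. RAW_LPS and RAW_Mock sums of a batch deviated together in scRNA-seq (r = 0.247, 0.336 and 0.420 over genes) and less so in Live-seq (0.244, 0.059, -0.006 and 0.118), and since nothing says that batches of a line came from separate stocks, p-values measure the spread between batches.

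Ratios between single sums or pooled cells carry exact 95% intervals and no test, and bounds use 3 counts. Shares of cells carry exact binomial intervals and were also computed at 50000 kept counts per cell. No 2 libraries were identical. Positions, exon lengths and transcripts are from GENCODE vM21 (GRCm38) and promoters from RefSeq. The 8 genes were all named, with up to 3 called genes per direction of each other list. The genes and lists were chosen with earlier results of these data known, and the alternative without the library that went against its label was added after seeing the data. Positions of Csf1r are not reported here.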

Additional observations from a re-analysis of the deposited data

Results flagged for a closer look

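In 6 of 15 groups of 4 or 5 Live-seq sums with any count, the highest sum stood apart from the others by Dixon's gap ratio at the 95% level, where chance flags about 1 group in 20. In 3 of the 6 all other sums were at 0, so that the ratio is 1 by construction and that rate does not apply. Csf1 in RAW_LPS stood apart in batch 6, at 238.9 CPM from 2 of 4 cells, with the next sum at 41.7 CPM. Csf2ra in RAW_LPS stood apart in the wild-type sum of batch 5Reseq, at 271.3 CPM with the other 4 sums at 0. Csf3r in RAW_Mock stood apart in batch 7, at 204.4 CPM from 2 of 20 cells, with the next sum at 20.8 CPM. Csf2rb2 in RAW_LPS stood apart in batch 7, at 21.8 CPM, with the next sum at 1.04 CPM. Il34 in RAW_Mock stood apart in batch 8_8, at 2.32 CPM from 42 counts in 1 cell, and Csf2ra in RAW_Mock in batch 7, at 0.249 CPM, both with 0 in the other 3 sums.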

How the results depend on the processing

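Over 1488 recomputed log2 fold changes of single members, 1311 kept their direction and side of the threshold. Another 130 had a different sign but were called neither in the reported nor in the recomputed fit. In the same direction, 38 passed where the reported value had not and 8 no longer passed. In 1 the sign differed and a call was involved: Spi1 in ASPC_Pre against IBA in scRNA-seq went from -2.69 to 3.42 without the library that went against its label. Leaving that library out also took the members called there from 0 to 3. The state with the highest mean was the same for 16 of 16 gene and technique pairs with CPM of all counts and for 14 with the mean of per-cell CPM, under which wild-type Csf2ra was 251.3 rather than 271.3 CPM. Except where a fit used fewer samples, the cause of these shifts was not tested. Among sums of at least 3 cells, a level under 2.13 CPM was below 3 counts in the least deep one, a Live-seq sum.

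The values that follow are shares of the genes tested, with counts of the 8 members. With DESeq2, LPS against mock in scRNA-seq called 5.26% rather than 1.28%, and ASPC_Pre against IBA called 2 members there. In Live-seq DESeq2 called 18.1% rather than 6.54% and 6 rather than 3 members for macrophage against stromal, 4.79% and 2 members with LPS, and 2.05% rather than 0.0223% and 1 member for ASPC_Pre against IBA. Between techniques it called 0.959% and 1 member in RAW_Mock, 1.89% in RAW_LPS, 1.04% and 2 members in IBA and 0.524% in ASPC_Pre, and for differences of effects 3.03% and 1 member with LPS and 2.18% for macrophage against stromal, each against 0. The edgeR 4 form of the fit called 3.44% with LPS and 19.6% and 2 members for ASPC_Pre against IBA in scRNA-seq (main 10.9% and 0), and in Live-seq 13.6% and 7 members for macrophage against stromal and 0.0594% for ASPC_Pre against IBA.

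Thinned cells gave 3.21% with LPS and 1 member for ASPC_Pre against IBA in scRNA-seq, and in Live-seq 10.7% and 5 members for macrophage against stromal, 0.128% and 1 member with LPS and 0.265% and 1 member for ASPC_Pre against IBA. With no filter more genes were tested. In scRNA-seq 22.7% were then called for macrophage against stromal and 5.10% with 1 member for ASPC_Pre against IBA, in Live-seq 4.21% with 5 members, 0.00414% with LPS and 0.0538% for ASPC_Pre against IBA, and between techniques 0.0759% and 1 member in RAW_Mock, 0.207% in RAW_LPS, 0.179% and 2 members in IBA and 0.00345% in ASPC_Pre. With negative-control and ribosomal genes kept, 0 members passed with LPS in scRNA-seq and 0.0147% of genes for ASPC_Pre against IBA in Live-seq. With sums from any number of cells, Live-seq called 5 members for macrophage against stromal and 0% for ASPC_Pre against IBA.

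Without the replicate block (batch), LPS called 0.258% and 0 members in scRNA-seq, and ASPC_Pre against IBA 7.11%, while Live-seq called 14.05% and 6 members for macrophage against stromal and 0.0817% for ASPC_Pre against IBA. With a replicate block between techniques, RAW_LPS called 0.0369%. Leaving out each batch in turn gave 0 to 0.135% and 0 members with LPS in scRNA-seq, 0.322 to 11.3% and 0 to 1 members for ASPC_Pre against IBA there, 0 to 0.0223% for it in Live-seq, and 0.523 to 7.46% for macrophage against stromal in Live-seq. Between techniques it gave 0 to 0.147% in ASPC_Pre, 0 to 0.00737% in IBA and 0 to 0.0295% in RAW_LPS, and for differences of effects 0 to 0.221% with LPS and 0 to 0.922% for macrophage against stromal.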

Other observations

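IBA whole cells collected in 1 batch after cytoplasmic sampling held less Csf1 than cells that had not been sampled. The 70 control cells had 1022 CPM, the 49 cells taken 1 h after sampling 674.6 CPM, 0.660 times as much (95% counting interval 0.647 to 0.674), and the 43 cells taken 4 h after it 680.1 CPM, 0.666 times (0.651 to 0.681). With 1 sum per time there is no test, and the 3 IBA sums of scRNA-seq differed by more than this, from 225.8 to 911.5 CPM. Il34 stood at 8.36, 4.38 and 6.29 CPM at the 3 times. Csf1r was counted in 3 of 70, 6 of 49 and 4 of 43 cells, and no pooled level exceeded 5.22 CPM.

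Some cells were sampled more than once. Pairs were taken here from the sample labels. Their numbers differ from those the paper reports for pairs that passed its quality control, where barcodes were used to match the ASPCs. In 9 ASPCs with a Live-seq library before and after induction, Csf1 was higher in the second sample in 3 cells and lower in 6, with values as far apart as 23.7 and 1799 CPM in 1 cell and 2603 and 111.8 CPM in another. Csf1r was counted in 4 of the 9 first samples and was lower in the second in all 4, as was Il34 in 3 of 3, while Csf2ra was lower in 3 and higher in 1. In 3 RAW cells sampled without and then with LPS, Csf1r went from 1813 to 1407 CPM, from 3788 to 1045 CPM and from 0 to 2549 CPM, and Csf1 was not counted in any second sample, while Tnf was higher in 3 of 3. In 1 case a cytoplasmic biopsy gave 0 for a receptor that every RAW whole cell held.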
